A study of Mus musculus with 13 samples.

Results

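Chromatin accessibility at 10 genes of Bmp and Fgf signalling was examined in nuclei of developing and adult mouse kidney. The genes were the ligands Bmp2, Bmp4, Bmp7, Fgf1, Fgf8, Fgf9, Fgf10 and Fgf20 and the receptors Fgfr1 and Fgfr2, and they were 10 of 32949 annotated genes with at least 1 peak. Members were taken by name, and every peak overlapping the gene body or the 2 kb upstream of it in the GENCODE annotation of mm10 was counted, which gave 762 of 300755 peaks. Single-nucleus ATAC-seq, which reads where a transposase can cut the DNA of each nucleus, had been run on whole kidneys of 2 P0 (newborn) samples and 3 adult samples. For these samples the sources used here name no genotype, strain or treatment (wild type C57BL/6 mice are named for the RNA samples of the study), and the extraction protocol in the labels describes the young animals as 1 day old. Adult replicate 1 was 3 weeks old (P21) and adult replicates 2 and 3 were 8 weeks old (P56), so the adult group spans both ages. P0 and adult kidneys were lysed in different volumes and in separate preparations, so age and preparation cannot be told apart. Nothing in the labels says whether the samples of a group came from separate animals, so p-values measure the spread between these samples only.

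Nephrons form from progenitor cells of the cap mesenchyme, which either renew or turn into epithelium beside the branching ureteric bud. Bmp ligands bind pairs of type I and type II receptors that phosphorylate Smad proteins, and Bmp7 is known for keeping nephron progenitors alive. Fgf ligands bind receptor tyrosine kinases that signal through Frs2 and Ras: Fgf9 and Fgf20 are known for maintaining progenitors, Fgf8 for the survival of early nephrons, and Fgf10 for ureteric growth through Fgfr2. An open peak shows accessible DNA and is not a measure of RNA.

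Cell identities were the 13 main clusters of the deposited annotation: NP (nephron progenitors), Podo (podocytes), PCT and PST (the convoluted and straight parts of the proximal tubule), LOH (loop of Henle), DCT and CNT (distal convoluted and connecting tubule), PC and IC (principal and intercalated cells of the collecting duct), Endo (endothelium), Immune, Stroma 1 and Stroma 2. They held 27652 of 28316 nuclei, and 477 barcodes were seen in more than 1 sample. The samples had 3361 to 7129 nuclei and medians of 3371 to 6737 open peaks per nucleus, and both P0 medians (6203 and 6737) were above all 3 adult medians (4153, 3371 and 6178). Levels at the stages are therefore given in CPM, here 1000000 times the open calls of a peak or gene over all open calls of the same sample and cluster. Log2 differences are those of the test, which also scales the samples by TMM, so they need not equal the ratios of the CPM values. The own cluster led 19 of 20 marker genes at P0 and 18 of 20 in the adult. The P0 exception was Trpv5, the only CNT marker used, at 36.5 CPM in CNT and 39.4 in DCT. Both adult exceptions were markers of NP: the progenitor factors Six2 (1.08 CPM, rank 13 of 13 clusters, against 56.7 at P0) and Cited1 (7.54, rank 5, against 29.8 at P0). Uncx still led in adult NP (22.6), and Slc12a1, the cotransporter that marks LOH, reached 39.9 there, its highest level outside LOH (332). These adult nuclei (52, 90 and 53 per sample, against 1032 and 1005 at P0) are written here as adult nuclei labelled NP, and each comparison in NP sets P0 progenitors beside them. At P0 Uncx stood at 46.5 CPM in NP and at 28.7 in LOH, its highest level outside NP. The LOH markers Slc12a1 and Umod were at 84.4 and 28.7 in P0 LOH, against 332 and 164 in adult LOH. Comparisons in LOH therefore set P0 nuclei with lower LOH marker levels beside adult ones.

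Peaks were numbered along each gene from its annotated start. Fgfr2 and Fgf20 each carried a readthrough record in GENCODE: that of Fgfr2 spans 2960900 bp on chromosome 7 and runs into Ctbp2, and that of Fgf20 spans 29166 bp on chromosome 8 and runs into Micu3. The RefSeq extents (Fgfr2 chr7:130162451-130266808, Fgf20 chr8:40279166-40286953) hold 45 of the 628 peaks of Fgfr2 and 2 of the 4 peaks of Fgf20, so 177 of the 762 peaks remain. These 177 peaks are written as those within the RefSeq extents, although the genes other than Fgfr2 and Fgf20 keep their GENCODE extents. Values for them are given beside those for all 762, and the other peaks are called readthrough peaks.

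Printed next are the central 300 bases of 8 intronic peaks on which the results turn, chosen after their values were seen. They are mm10 sequence from RefSeq GRCm38.p6, plus strand, 5′ to 3′, and capitals mark matches to 13 motif words on either strand. Bmp7 peak 6, Fgf10 peak 9, Fgfr1 peak 2 and Fgfr2 peak 44 are shown because they were higher at P0:
Bmp7 peak 6 chr2:172933955-172934254: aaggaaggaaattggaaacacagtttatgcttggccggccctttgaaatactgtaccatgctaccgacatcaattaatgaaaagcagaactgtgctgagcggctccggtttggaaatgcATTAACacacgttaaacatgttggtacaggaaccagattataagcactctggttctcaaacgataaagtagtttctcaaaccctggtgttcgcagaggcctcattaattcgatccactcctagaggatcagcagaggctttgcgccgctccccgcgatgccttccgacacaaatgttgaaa
Fgf10 peak 9 chr13:118746568-118746867: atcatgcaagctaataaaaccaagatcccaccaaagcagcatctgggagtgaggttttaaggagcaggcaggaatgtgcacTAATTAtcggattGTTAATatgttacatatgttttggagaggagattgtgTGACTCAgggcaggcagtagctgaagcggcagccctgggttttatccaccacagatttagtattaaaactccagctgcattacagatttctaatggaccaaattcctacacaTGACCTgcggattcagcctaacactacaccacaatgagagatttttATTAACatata
Fgfr1 peak 2 chr8:25514827-25515126: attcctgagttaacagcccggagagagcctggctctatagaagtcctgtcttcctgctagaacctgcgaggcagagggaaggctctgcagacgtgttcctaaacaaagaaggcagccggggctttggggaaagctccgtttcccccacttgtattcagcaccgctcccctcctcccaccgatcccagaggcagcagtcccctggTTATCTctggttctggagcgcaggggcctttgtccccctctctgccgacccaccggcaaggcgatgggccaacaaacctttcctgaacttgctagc
Fgfr2 peak 44 chr7:130165050-130165349: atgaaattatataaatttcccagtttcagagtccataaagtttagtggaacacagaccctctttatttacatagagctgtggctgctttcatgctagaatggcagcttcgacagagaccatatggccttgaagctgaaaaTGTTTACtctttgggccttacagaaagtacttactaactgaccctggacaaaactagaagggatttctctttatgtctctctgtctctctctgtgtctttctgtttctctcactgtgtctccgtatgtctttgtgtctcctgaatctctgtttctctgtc
Bmp7 peak 20, Fgfr1 peak 10 and Fgfr2 peak 20 are shown because they were higher in the adult:
Bmp7 peak 20 chr2:172901299-172901598: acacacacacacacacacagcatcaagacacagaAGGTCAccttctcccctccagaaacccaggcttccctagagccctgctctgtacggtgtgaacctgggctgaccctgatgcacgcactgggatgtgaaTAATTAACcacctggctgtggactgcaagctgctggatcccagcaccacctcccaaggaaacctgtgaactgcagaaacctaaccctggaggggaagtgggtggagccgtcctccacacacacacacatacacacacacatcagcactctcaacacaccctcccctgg
Fgfr1 peak 10 chr8:25537290-25537589: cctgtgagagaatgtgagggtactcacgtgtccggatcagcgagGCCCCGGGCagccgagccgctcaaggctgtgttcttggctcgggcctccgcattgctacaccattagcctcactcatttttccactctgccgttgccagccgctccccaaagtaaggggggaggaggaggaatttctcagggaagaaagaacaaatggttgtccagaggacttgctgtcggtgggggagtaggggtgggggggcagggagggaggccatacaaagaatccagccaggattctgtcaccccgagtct
Fgfr2 peak 20 chr7:130230233-130230532: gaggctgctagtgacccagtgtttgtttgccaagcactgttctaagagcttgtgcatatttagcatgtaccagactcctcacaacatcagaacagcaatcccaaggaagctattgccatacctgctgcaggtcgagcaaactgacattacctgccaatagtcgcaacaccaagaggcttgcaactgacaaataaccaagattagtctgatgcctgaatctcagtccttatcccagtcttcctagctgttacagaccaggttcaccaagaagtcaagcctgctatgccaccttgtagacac
Fgf9 peak 12 is shown because NP nuclei at P0 had it open most often:
Fgf9 peak 12 chr14:58104466-58104765: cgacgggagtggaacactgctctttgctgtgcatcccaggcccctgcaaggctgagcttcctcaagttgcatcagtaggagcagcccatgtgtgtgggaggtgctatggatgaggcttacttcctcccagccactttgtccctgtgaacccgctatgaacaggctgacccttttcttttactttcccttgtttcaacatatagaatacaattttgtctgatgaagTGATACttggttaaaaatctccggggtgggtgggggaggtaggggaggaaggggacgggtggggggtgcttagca
The words matched were the HNF1 word GTTAAT in Bmp7 peaks 6 and 20 and Fgf10 peak 9, the homeobox word TAATTA in Bmp7 peak 20 and Fgf10 peak 9, and the nuclear receptor word AGGTCA in the same pair. The homeobox and HNF1 matches of Bmp7 peak 20 overlap. Fgf10 peak 9 also held the AP-1 word TGANTCA, Fgfr1 peak 2 the GATA word AGATAA, Fgfr1 peak 10 the TFAP2 word GCCNNNGGC, Fgfr2 peak 44 the forkhead word TGTTTAC and Fgf9 peak 12 the sine oculis word TGATAC, and Fgfr2 peak 20 held none of the words. Among the central 300 bases of all 300693 peaks searched, HNF1 was found in 11.8%, homeobox in 8.88%, the nuclear receptor word in 21.1%, AP-1 in 10.5%, GATA in 15.3%, TFAP2 in 8.99%, forkhead in 5.10% and sine oculis, the family of Six2, in 7.15%. Among the 177 member peaks the GATA word was in 10 (5.65%) and the SP/KLF word GGGCGGG in 17 (9.60%, against 5.10% of all peaks). These shares are descriptions without a test. The member peaks had a median GC content of 50%, and the 17 over a start site one of 61.7%, against 46.7% over all peaks.

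The question put to each gene was whether its chromatin differed between P0 and adult nuclei of the same cluster. Gene activity, the open calls summed over all peaks of a gene, was tested for each cluster with edgeR's quasi-likelihood test over all genes. Over all 10 genes, 22 of 112 gene and cluster pairs tested were higher at P0 (19.6%) and 10 higher in the adult (8.93%), where 14.2% and 11.1% of all 251964 pairs were called in these directions. With the RefSeq extents, 25 of 101 pairs were called for P0 and 11 for the adult, and without NP, 21 of 93 and 10. A pair could reach the minimum count in samples of the stage where it was high and in none of the other stage. It then had to be high there to be tested, so such pairs (5 of the 38 gene activity calls over both extents, and 18.2% of the calls over all genes) are written as tested through one stage and given as values with no p. The filter asked for 2 samples over the minimum, so a pair with a single sample of the low stage over it still needed the high stage. Such pairs keep their p, although the filter leaned on the stage where they were high. Among them are Bmp2 peak 2 in LOH and Endo, Fgf10 peak 2 in LOH and Fgf20 (RefSeq extent) in LOH. Bmp2 and Fgf10 were each called for P0 in 6 clusters, 2 and 3 of which were tested through P0, Fgf1 was higher in the adult in each of the 4 clusters called, and Bmp7 passed the test in none of 13. Over all peaks of the rule, median log2 differences (P0 minus adult) across the clusters tested ran from −0.31 for Fgf1 to 1.28 for Fgf10, against −0.01 over all genes. Fgf20 over its RefSeq extent, tested in 2 clusters, had 2.11. The heatmap of these differences shows the Bmp2 and Fgf10 rows mostly on the P0 side and the Fgf1 row mostly on the adult side, CNT (log2 0.21) and PC (0.30) being on the P0 side without a call.

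**Figure D1:**
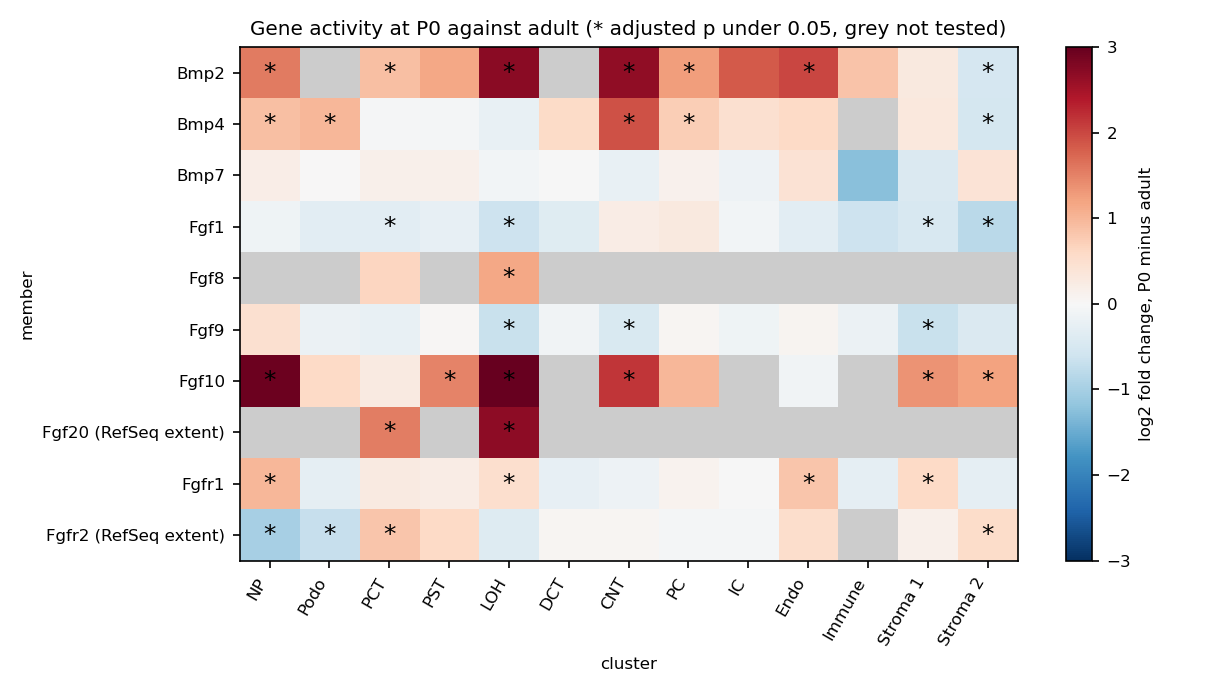
Log2 fold change in gene activity, P0 minus adult (colour), for the 10 genes (rows) in the 13 clusters (columns), with asterisks at an adjusted p under 0.05 and grey where no test was made. The asterisks of Bmp2 in NP and CNT and of Fgf10 in NP, CNT and Stroma 1 are pairs tested through P0. Fgfr2 and Fgf20 use their RefSeq extents, and Fgf10 in LOH is at 2.99.

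Peak by peak, 477 of the 762 peaks passed the count filter in at least 1 cluster. Of 1429 peak and cluster pairs tested, 204 (14.3%) had more open calls at P0 and 337 (23.6%) in the adult, against 18% and 16% of all 488507 pairs. Within the RefSeq extents 122 of 177 peaks were tested, and 85 of 402 pairs were called for P0 (21.1%) and 71 for the adult (17.7%). Without NP these counts were 80 and 70 of 393. With DESeq2 the calls within the RefSeq extents were 47 for P0 and 55 for the adult, and with thinned nuclei 6 and 6, so the direction of the larger count changed with the test. Called pairs lay on 86 peaks, 50 higher at P0, 45 higher in the adult and 9 higher in each in different clusters. Of 85 calls at the named peaks, 33 were tested through one stage, as were 49.7% of the calls over all peaks.

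The counts by cluster given next are for peaks within the RefSeq extents. LOH gave the most calls, with 25 of 89 such peaks higher at P0 and 29 in the adult, against 29.9% and 24.4% of all peaks tested in LOH. In PCT 21 of 85 had more open calls at P0 and 9 had more in the adult, against 17.6% and 16.3%. Stroma 2 gave 8 P0 calls and 16 adult calls of 40, against 26.5% and 23.7%. edgeR called 0 of 11 pairs in Podo, 0 of 10 in DCT and 0 of 10 in IC. Over all peaks the P0 and adult shares called there were also low, at 3.52% and 6.07% in Podo, 1.13% and 2.6% in DCT and 0% and 0.108% in IC. At an unadjusted p under 0.05 there were 2 pairs in Podo, 3 in DCT and 0 in IC, and DESeq2 called 0 in each. No peak within the RefSeq extents was tested in Immune.

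Bmp2, a ligand that restrains ureteric branching, lies at chr2:133552159-133562885 and had 3 peaks. In LOH its gene activity was 39.2 and 30.6 CPM at P0 and 5.12, 5.64 and 4.56 in the adult. Both P0 values were above all adult values, a log2 difference of 2.71 (SE 0.26, adjusted p = 3.1e-05). It was also higher at P0 in Endo (34.9 and 34 against 4.76, 11.6 and 5.51, log2 2.01, SE 0.29, adjusted p = 5.2e-04). Both calls held with each sample left out. NP (27.5 and 29.6 against 4.32, 6.09 and 19.0, log2 1.55) and CNT (35.3 and 22.7 against 5.44, 5.03 and 4.23, log2 2.66) were tested through P0. PC (log2 1.26, SE 0.36, adjusted p = 0.0165) and PCT (0.90, SE 0.28, 0.0362) had the same direction. PC moved to 0.396 without P0 replicate 1, 0.0503 without P0 replicate 2 and 0.095 without adult replicate 3. PCT moved to 0.199, 0.196, 0.0731 and 0.068 without P0 replicate 1, P0 replicate 2, adult replicate 1 and adult replicate 3. DESeq2 called neither PC (0.136) nor PCT (0.0544), PC was also lost with no filter (0.0664) and equal numbers of nuclei (0.0906), and PCT with thinned nuclei (0.84).

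Stroma 2 ran the other way at Bmp2, with 21.8 and 23.7 CPM at P0 and 31.9, 38.3 and 28.3 in the adult. All adult values were above both P0 values (log2 −0.51, SE 0.17, adjusted p = 0.0329), but the call was lost without P0 replicate 1 (0.348), P0 replicate 2 (0.245) or adult replicate 2 (0.193), and also with DESeq2 (0.143), no filter (0.053), equal numbers of nuclei (0.151), the gene body only (0.064) and the replicate block. The call was kept under 6 of 14 alternatives. The order of clusters changed with it. At P0 mean Bmp2 activity was highest in Immune (47.0 ± 10.8, SD, n = 2), from only 15 and 12 open calls, and its samples overlapped those of IC. LOH, Endo, IC, CNT and NP followed (28.5 to 34.9) and overlapped one another in turn, and PCT was lowest (11.52 ± 0.195). In the adult Bmp2 activity was highest in Stroma 2 (32.8 ± 5.07, n = 3). It overlapped Immune (25.4 ± 22.1, from 1, 10 and 8 calls), and LOH (5.11) and CNT (4.90) were last.

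The start-site peak of Bmp2 (peak 2, chr2:133552050-133553599, over an untranslated exon) was open in 18.9% and 16.0% of P0 endothelial nuclei and in 0.905%, 1.69% and 0.696% of adult ones. In CPM this was 26.2 and 23.9 against 3.17, 6.31 and 2.36 (log2 2.43, SE 0.35, adjusted p = 2.2e-05). In LOH the same peak stood at 21 and 15.5 CPM against 4.48, 1.76 and 2.05 (log2 2.67, SE 0.37, adjusted p = 1.47e-06). Peak 3, over a coding exon 2.66 kb downstream of the start, was open in 55 and 55 LOH nuclei at P0 and in 0 (up to 0.761% allowed), 1 and 5 in the adult (log2 3.87), and was tested through P0. Both calls at peak 2 given here held under every alternative that tested them. In each, a single adult sample was over the minimum count, so the filter leaned on P0.

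Bmp4, made by mesenchyme around the ureteric stalk and an inhibitor of ectopic budding, lies at chr14:46383520-46390669 and had 3 peaks. In CNT its gene activity was 49.0 and 39.0 CPM at P0 and 19.0, 15.1 and 7.86 in the adult (log2 1.92, SE 0.34, adjusted p = 6.95e-04), which held with each sample left out. In NP it was 58.7 and 60.8 against 21.6, 36.6 and 43.4 (log2 0.90, SE 0.25, adjusted p = 0.00215, and 0.0526 without adult replicate 1). Podo (log2 0.99, SE 0.24, adjusted p = 0.0088) and PC (0.74, SE 0.21, 0.0144) were also higher at P0. Podo moved to 0.0987 without P0 replicate 2 and 0.155 without adult replicate 2. PC moved to 0.198, 0.126 and 0.0765 without P0 replicate 1, P0 replicate 2 and adult replicate 3. DESeq2 called neither (0.265 and 0.199), Podo was also lost with thinned nuclei (0.117) and PC with equal numbers of nuclei (0.39).

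In CPM Bmp4 in Stroma 2 also stood on the adult side, at 59.7 and 59.8 CPM at P0 and 91.1, 88.3 and 87.7 in the adult (log2 −0.52, SE 0.12, adjusted p = 0.00533). Without P0 replicate 1 the adjusted p was 0.129, without P0 replicate 2 it was 0.156 and with thinned nuclei it was 0.122. Adult Stroma 2 (89.0 ± 1.79) was above every other adult cluster in each sample, LOH (78.0 ± 6.61) being next, and CNT was lowest (13.99 ± 5.67). At P0 the leading clusters were LOH (70.1 ± 1.96), Podo (66.6 ± 5.29), PST (63.0 ± 3.43), NP (59.7 ± 1.495) and Stroma 2 (59.7), where each neighbour overlapped the next, and Immune was last (10.8 ± 4.09). The widest Bmp4 peak (peak 2, chr14:46386666-46389158) also overlaps Gm15222, and was open in 47.8% ± 5.7 of PST nuclei at P0 and 41.8% ± 12 in the adult. In Stroma 2 the shares of nuclei ran against the CPM: Bmp4 peak 2 was open in 31.6% ± 1.3 at P0 and 26.1% ± 4.5 in the adult, and Bmp2 peak 2 in 11.7% ± 1.2 and 9.24% ± 0.72. These shares are not scaled for depth, which was higher in P0 Stroma 2 (medians of 6930 and 7624 open peaks against 3465.5, 3384 and 3311).

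Bmp7 lies at chr2:172868012-172940321 with 30 peaks, and its gene activity passed the test in 0 of 13 clusters with edgeR. At an unadjusted p under 0.05 it was higher at P0 in 1 cluster and in the adult in 2, and DESeq2 called none. Its mean levels were highest in distal segments at both stages: DCT (255 ± 32.3 at P0, 279 ± 55.2 in the adult), LOH (244 ± 1.45 and 246 ± 18.1) and CNT (228 ± 21.3 and 276 ± 22.8), which overlapped. The proximal PCT came next at P0 (219 ± 11.8) and overlapped CNT there, while in the adult it was at 181 ± 14.8. NP was ninth at P0 (136 ± 3.81) and Immune last (27.1 ± 6.15).

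Of 78 peak and cluster pairs of Bmp7, 18 (23.1%) were called for P0 and 9 (11.5%) for the adult, beside 18% and 16% over all peaks. Peak 6, an intronic peak 6.22 kb into the gene (chr2:172933742-172934469), was at 22.4 and 19.4 CPM in P0 LOH and 2.56, 3.52 and 4.33 in adult LOH (log2 2.28, SE 0.32, adjusted p = 1.85e-06). In PCT it was at 3.22 and 2.69 against 0.219, 0.279 and 0.347 (log2 3.08), tested through P0. P0 and adult samples did not overlap in either cluster. Peak 30, over the last exon 72.5 kb from the start, was at 16.0 and 14.3 in P0 Stroma 2 against 2.28, 3.72 and 2.76 (log2 2.30). The start-site peak (peak 2) was at 29.5 and 29.3 in P0 NP against 12.97, 21.3 and 13.6 (log2 1.21). Both were tested through P0.

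Peak 20, intronic and 38.9 kb into Bmp7 (chr2:172901051-172901848), stood at 2.43 and 2.67 CPM in P0 Stroma 2 and at 15.9, 4.26 and 11.7 in the adult (log2 −1.89), and was tested there through the adult. Adult replicate 2 was closest to the P0 values. In LOH the values were 32.1 and 41.1 against 74.8, 53.9 and 83.3 (log2 −1.16, SE 0.25, adjusted p = 3.43e-04), and this call was at 0.0524 without P0 replicate 1 and at 0.311 with thinned nuclei. DCT nuclei had peak 20 open most often at both stages, in 31.0% ± 13 at P0 and 35.8% ± 15 in the adult. The call of peak 6 in LOH held under every alternative that tested it.

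**Figure D2:**
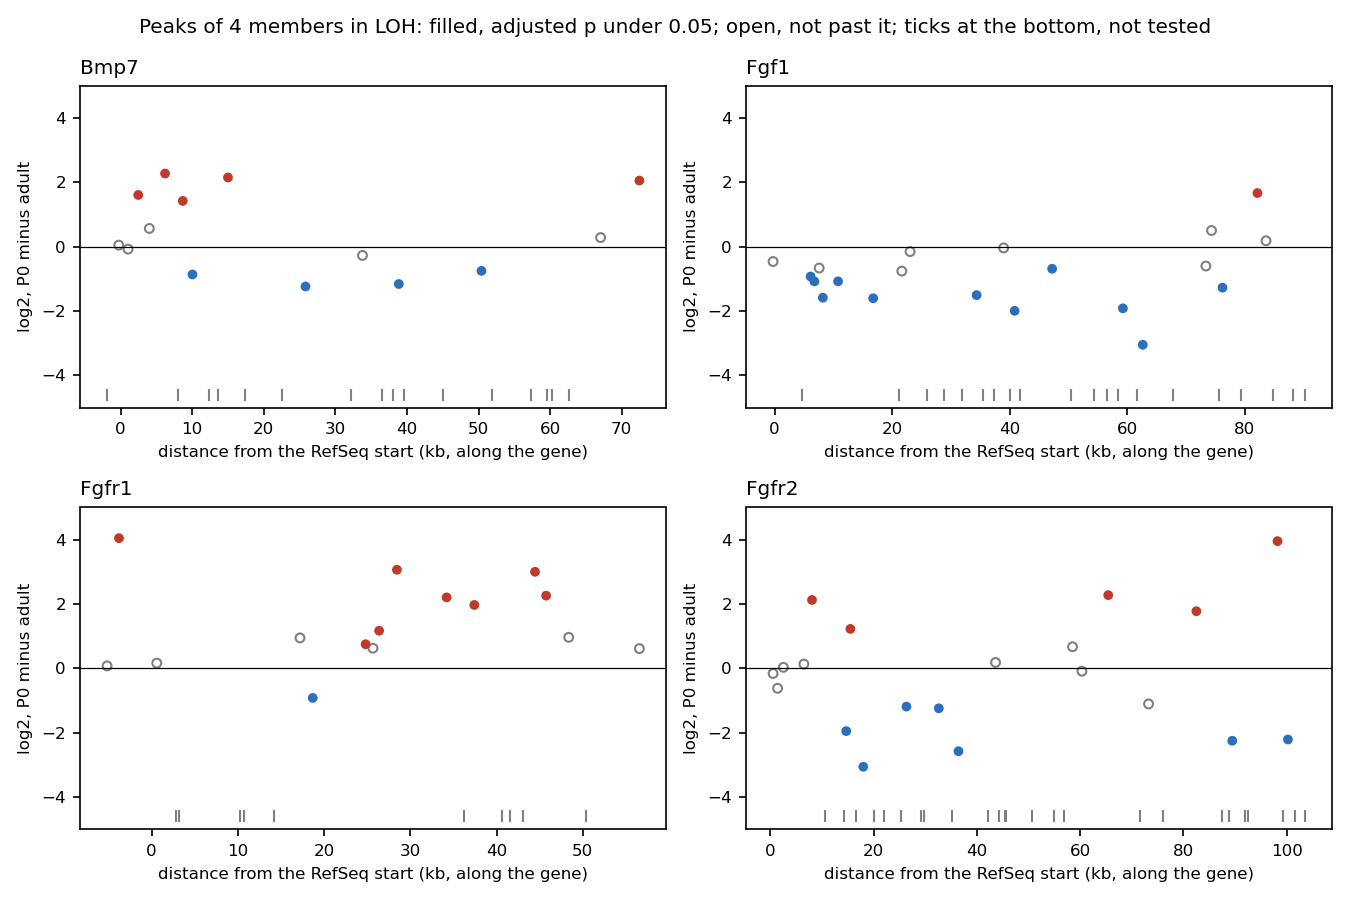
Log2 difference, P0 minus adult, of each tested peak of Bmp7, Fgf1, Fgfr1 and Fgfr2 in LOH (vertical axis) against its distance from the RefSeq start in kb along the gene (horizontal axis). Filled points pass an adjusted p of 0.05, open points do not, and ticks mark peaks that were not tested. Each gene holds peaks on both sides of 0, among them 4.05 at Fgfr1 peak 2 (tested through P0), −3.05 at Fgf1 peak 29 (tested through the adult) and −2.58 at Fgfr2 peak 20.

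Fgf1, a broadly acting ligand without a classical signal peptide, lies on chromosome 18 (38838673 to 38929472) with 40 peaks, all of which also lie in the window of Arhgap26, so its gene activity cannot be told apart from that of its neighbour. In Stroma 2 it was 136 and 128 CPM at P0 and 258, 203 and 264 in the adult (log2 −0.81, SE 0.14, adjusted p = 6.88e-04), a call that held under all 14 alternatives. In LOH it was 174 and 174 against 223, 267 and 268 (log2 −0.62, SE 0.13, adjusted p = 0.00253, and 0.0697 with thinned nuclei). Stroma 1 was called in the same direction (log2 −0.47, SE 0.15, adjusted p = 0.0169), but not without P0 replicate 1 (0.194), P0 replicate 2 (0.38) or adult replicate 3 (0.0575), or with thinned nuclei (0.454) or the replicate block. PCT (log2 −0.31, SE 0.10, adjusted p = 0.0463) was lost without P0 replicate 1 (0.36), P0 replicate 2 (0.219), adult replicate 1 (0.0786) or adult replicate 2 (0.0529), and with DESeq2 (0.0552), thinned nuclei (0.536), equal numbers (0.0945) or the replicate block. Fgf1 was higher at P0 in 0 of 13 clusters with edgeR, with DESeq2 and at an unadjusted p under 0.05.

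Endothelium led Fgf1 activity at P0 (316 ± 4.83), above PST (287 ± 9.09) and PCT (219 ± 6.58) in each sample. It led in the adult too (385 ± 26), where PST (321 ± 58.5) overlapped it, and Immune was last at both stages. The start-site peak (peak 1) was open in 41.0% ± 2.0 of endothelial nuclei at P0 and 24.0% ± 6.2 in the adult, but with every nucleus thinned to 1000 open peaks the order turned, at 5.77% and 9.47%. In CPM it was 58.8 and 59.0 at P0 and 68.2, 80.0 and 105 in the adult (log2 −0.62, SE 0.22, adjusted p = 0.0288), a call lost without P0 replicate 1 (0.425), P0 replicate 2 (0.358) or adult replicate 3 (0.0504), and with DESeq2 (0.0743), no filter (0.435), thinned nuclei (0.476) or equal numbers (0.26). Stroma 2 was at 33.5 and 29.0 CPM for peak 1 at P0 and at 76.3, 62.8 and 81.5 in the adult (log2 −1.21, SE 0.17, adjusted p = 5.05e-06). An internal start-site peak, peak 29, was almost closed in P0 NP nuclei (1.56 and 1.57 CPM) and open in the adult nuclei labelled NP (34.6, 30.5 and 21.7, log2 −3.78). In LOH peak 29 was at 1.18 and 2.18 at P0 and at 15.3, 15.2 and 8.90 in the adult (log2 −3.05). Both were tested through the adult. The Stroma 2 call of peak 1 held under every alternative that tested it.

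Fgf8, needed by early nephrons, lies at chr19:45736798-45742915 and had 1 peak, over a coding exon 5.75 kb from the RefSeq start. Its gene activity was 7.79 and 5.95 CPM in P0 LOH and 2.56, 3.88 and 2.28 in adult LOH (log2 1.17, SE 0.40, adjusted p = 0.028). The call was lost without P0 replicate 1 (0.301), P0 replicate 2 (0.104) or adult replicate 3 (0.108), with DESeq2 (0.157) and with 5 kb upstream in place of 2 kb (0.279). Only 2 clusters passed the count filter. DCT had the highest P0 mean (8.95 ± 2.24) from only 4 and 3 open calls and did not pass the filter. The next 8 clusters overlapped in turn, down to Stroma 1 (4.29 ± 0.521), with CNT at 6 and 7 calls and IC at 1 and 3, so this order rests on few calls.

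Fgf9, which with Fgf20 keeps progenitors undifferentiated, lies at chr14:58070547-58112720 and had 13 peaks. In LOH its gene activity was 88.3 and 86.7 CPM at P0 and 136, 124 and 137 in the adult (log2 −0.66, SE 0.13, adjusted p = 0.00142), which held under all 14 alternatives. CNT (94.5 and 95.7 against 160, 124 and 131, log2 −0.45, SE 0.16, adjusted p = 0.0485) lost its call without P0 replicate 1 (0.233), P0 replicate 2 (0.21), adult replicate 1 (0.106) or adult replicate 3 (0.0726), and with DESeq2 (0.254), its size factors in edgeR (0.0569), thinned nuclei (0.994) or the replicate block. Stroma 1 (log2 −0.66, SE 0.25, adjusted p = 0.0496) overlapped between stages, at 28.2 and 28.3 against 71.4, 26.9 and 50.3, and lost its call without P0 replicate 1 (0.26), P0 replicate 2 (0.255), adult replicate 1 (0.294) or adult replicate 3 (0.248), and with DESeq2 (0.232), equal numbers (0.166), the gene body only (0.0504), 5 kb upstream (0.0547) or the replicate block. edgeR called it higher at P0 in 0 of 13 clusters, 1 passing at an unadjusted p under 0.05, and DESeq2 called 0. DCT (102 ± 5.04), PC (101 ± 0.476), CNT (95.1 ± 0.838) and LOH (87.5 ± 1.08) led at P0, with NP at 74.4 ± 3.49, and CNT (138 ± 19.4), LOH (132 ± 7.48) and DCT (119 ± 6.79) led in the adult. Stroma 2 was lowest at P0 (19.9 ± 0.953) and Endo in the adult (19.99 ± 6.32).

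Fgf9 peak 12, intronic and 33.9 kb from the start (chr14:58104396-58104837), was open in 7.95% and 8.46% of P0 NP nuclei, and the next P0 cluster, LOH, was at 1.47% ± 0.52. With nuclei thinned to 1000 open peaks it was 0.90% in NP and 0.078% in LOH. None of the 195 adult nuclei labelled NP had it open, which allows a share of up to 1.54%. Peak 13, over the last exon, was higher in adult LOH, at 7.08 and 7.94 against 12.8, 15.2 and 18.9 CPM (log2 −1.30, SE 0.30, adjusted p = 6.52e-04), which held under every alternative that tested it. The rarely open intronic peak 6 was at 0.236 and 0.992 in P0 LOH against 3.84, 6.34 and 3.19 (log2 −2.90), tested through the adult.

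Fgf10, the mesenchymal ligand of Fgfr2, lies at chr13:118669791-118792115 with 15 peaks, of which 5 passed the count filter. In LOH its gene activity was 33.7 and 31.6 CPM at P0 and 7.68, 2.82 and 2.97 in the adult (log2 2.99, SE 0.33, adjusted p = 5.58e-05). In Stroma 2 it was 30.8 and 29.9 against 17.1, 16.5 and 7.60 (log2 1.21, SE 0.23, adjusted p = 0.00151, and 0.101 with thinned nuclei). Both calls held with each sample left out. NP (49.5 and 41.1 against 4.32, 9.14 and 5.43, log2 2.94), CNT (18.2 and 16.4 against 5.44, 3.02 and 4.23, log2 2.13) and Stroma 1 (22.5 and 22.7 against 6.80, 6.72 and 13.04, log2 1.35) were tested through P0. PST (43.6 and 42.3 against 18.03, 16.5 and 11.3, log2 1.48, SE 0.26, adjusted p = 0.00587) moved to 0.124 without P0 replicate 1 and 0.121 without P0 replicate 2. Fgf10 was higher in the adult in 0 of 10 clusters tested, with edgeR, with DESeq2 and at an unadjusted p under 0.05.

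NP (45.3 ± 5.95) and PST (42.9 ± 0.946) led Fgf10 activity at P0 and overlapped, both above LOH (32.7 ± 1.55), and Endo was lowest (4.63 ± 0.411). PCT (23.7 ± 4.04) had the highest adult mean and overlapped Podo (15.5 ± 9.21). The peak over the RefSeq start (peak 2, chr13:118713627-118715914) also overlaps Gm16263, and was open in 20.5% and 21.7% of P0 NP nuclei. Of the adult nuclei labelled NP it was open in 0 of 52 (up to 5.77% allowed), 2 of 90 and 0 of 53 (up to 5.66%), and the CPM at P0 was 14.2 times as high (exact counting interval 3.91 to 118), in a pair tested through P0. Such intervals pool the nuclei of a stage and leave out the spread between samples, so they are no test of the stages. In LOH it was open in 16.2% and 16.3% against 1.52%, 0.384% and 0.663% (log2 3.37, SE 0.37, adjusted p = 5.42e-08). Peak 9, intronic and 32.0 kb from the RefSeq start, was open in 10 and 25 P0 LOH nuclei and in none of 2341 adult LOH nuclei. This allows an adult share of up to 0.128%. The level of the pooled P0 nuclei was 11.1 times a floor of 3 calls over the adult group. That ratio leaves out the counting error at P0 and the spread between samples, so it is no lower bound. Peak 9 too was tested through P0. Peak 6 was open in 4.27% ± 0.15 of P0 NP nuclei, the highest of the clusters, and in none of the 195 adult nuclei labelled NP (up to 1.54%). The LOH call of peak 2 held under every alternative that tested it, but a single adult sample was over the minimum count, so the filter leaned on P0. Peak 2 was also called higher at P0 in PST (adjusted p = 0.00587, kept under 9 of 11 alternatives) and PC (0.0461, kept under 3 of 8).

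Fgf20 (RefSeq extent, 2 peaks) was most accessible in P0 progenitors. Its gene activity was 27.0 and 20.7 CPM in P0 NP, above all other P0 clusters in each sample (LOH, 11.1 ± 3.03, was next), and 0, 3.05 and 2.71 in the adult nuclei labelled NP, where no test was made. From 331 calls against 2, this is a ratio of 10.9 (exact counting interval 3.00 to 90.6, nuclei pooled). The 13 adult clusters had means of at most 2.09, and P0 was above the adult in every sample in 10 of 13 clusters. LOH and PCT alone met the count filter, LOH with a single adult sample over the minimum, so that the filter leaned on P0 there. LOH was at 13.2 and 8.93 against 2.56, 0.705 and 1.83 (log2 2.69, SE 0.45, adjusted p = 6.64e-04), which held with each sample left out, and PCT was at 4.70 and 3.29 against 1.53, 1.12 and 1.16 (log2 1.54, SE 0.40, adjusted p = 0.0174), which moved to 0.255 without P0 replicate 1, 0.0823 without P0 replicate 2, 0.0666 with DESeq2 and 0.112 with equal numbers of nuclei. The RefSeq start-site peak (peak 1, chr8:40286259-40287506) was open in 14.5% and 13.9% of P0 NP nuclei and in 0 of 52 (up to 5.77% allowed), 1 and 1 of the adult nuclei labelled NP. Over the whole readthrough record, Fgf20 was called in NP alone among 12 clusters tested (66.6 and 62.0 against 47.6, 30.5 and 51.5, log2 0.72, SE 0.23, adjusted p = 0.0087), and the call was lost without P0 replicate 1 (0.0911) or adult replicate 2 (0.155).

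**Figure D3:**
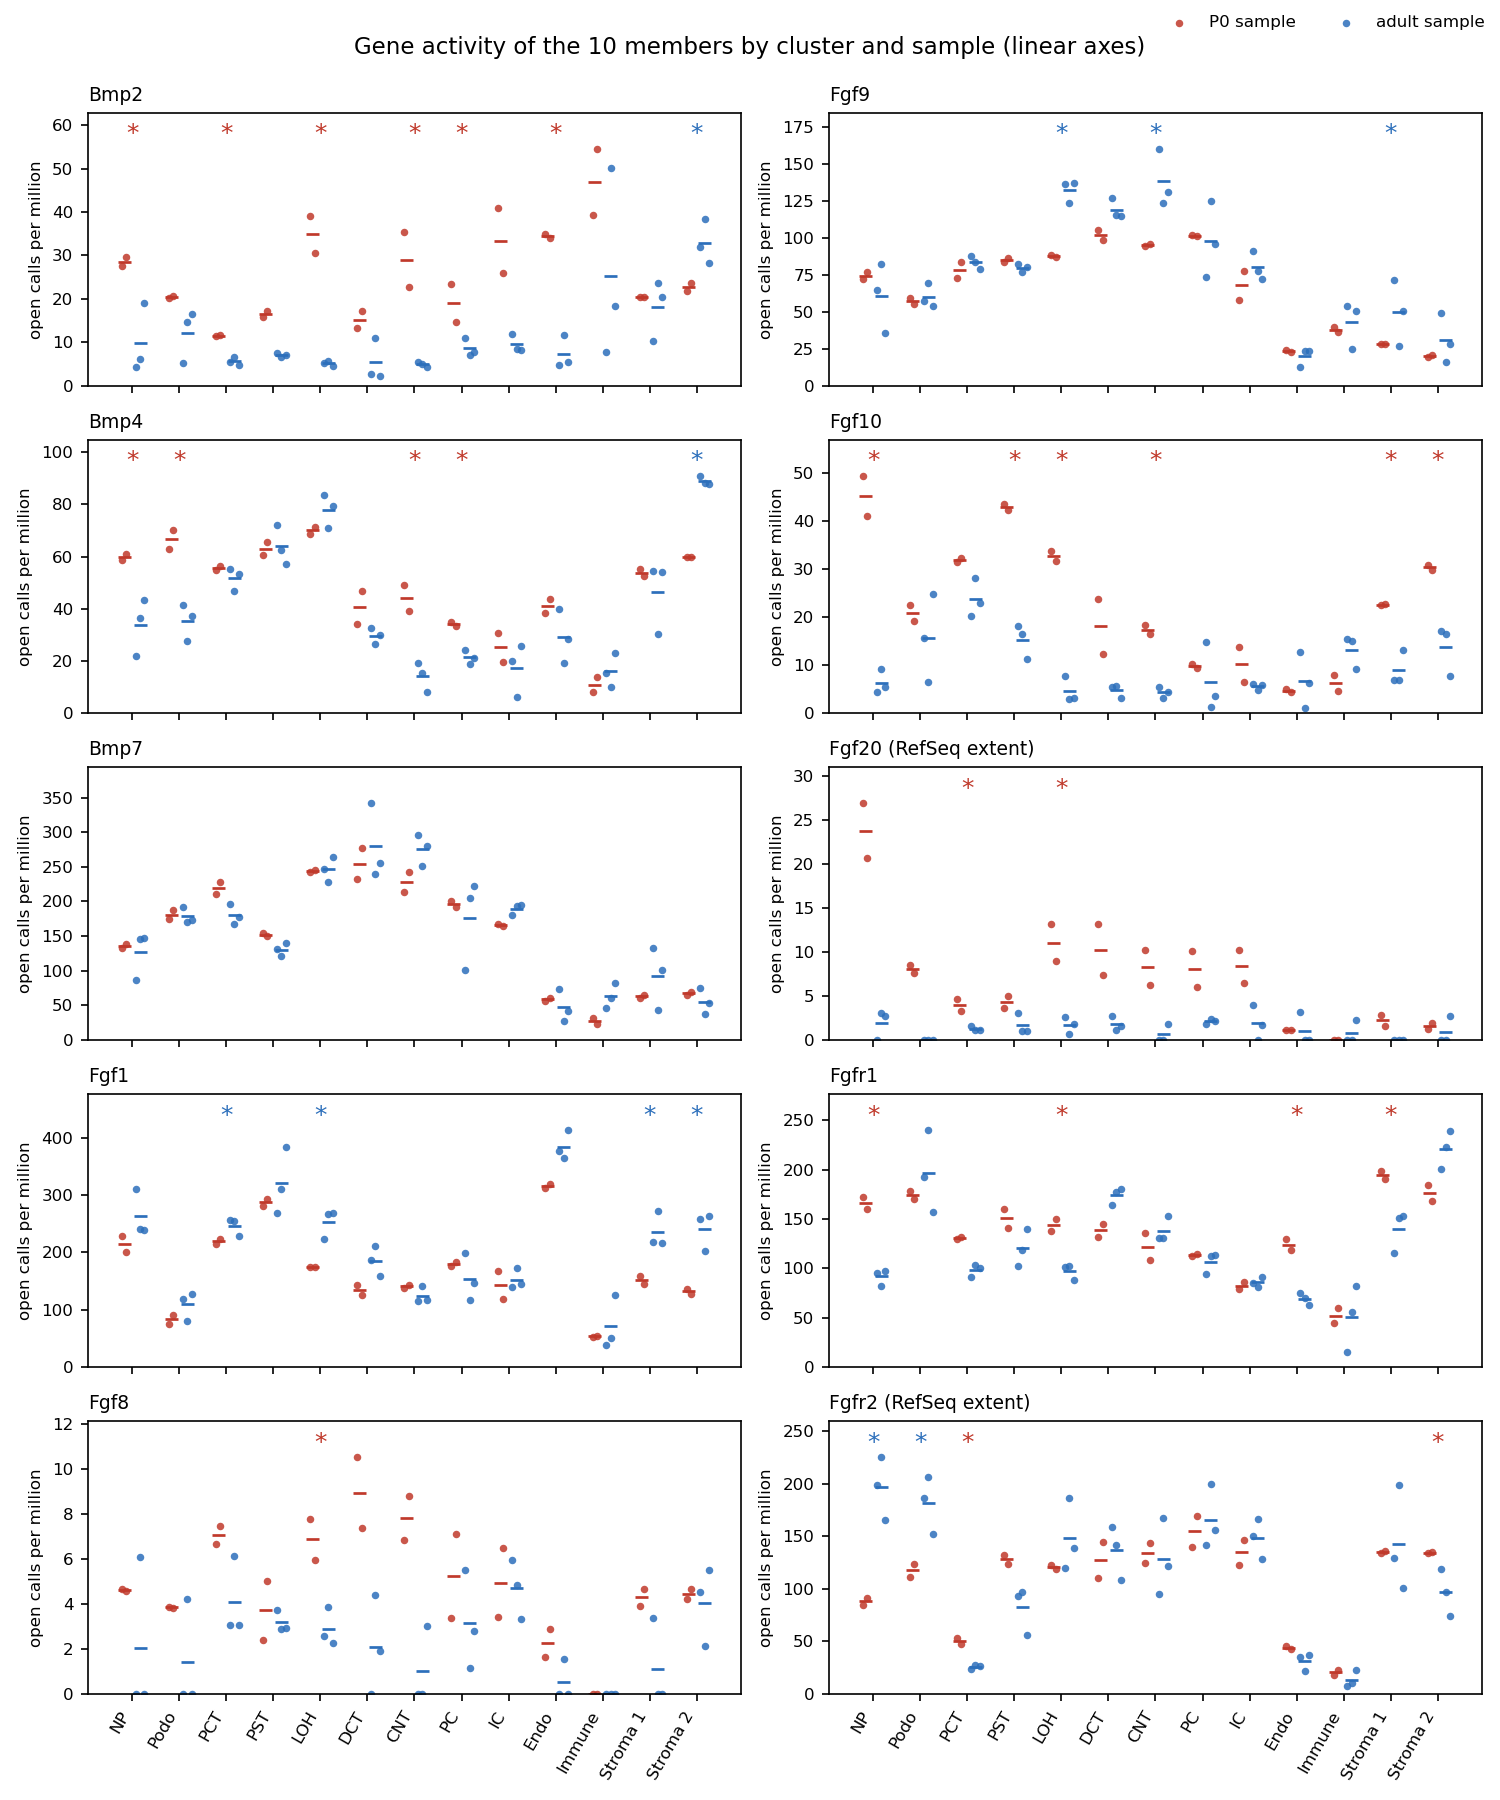
Gene activity in CPM (open calls per 1000000, linear vertical axes) of the 10 genes in 13 clusters, with 1 point for each P0 and adult sample, a line at the mean of each stage and an asterisk at an adjusted p under 0.05. Asterisks at Bmp2 in NP and CNT and at Fgf10 in NP, CNT and Stroma 1 mark pairs tested through P0. Fgf10 in LOH sits at 31.6 to 33.7 at P0 and at most 7.68 in the adult, while Fgf9 in LOH sits at 86.7 to 88.3 and at least 124.

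Fgfr1, the receptor of cap mesenchyme and stroma, lies at chr8:25513654-25575718 with 25 peaks. In NP its gene activity was 172 and 160 CPM at P0 and 95.1, 82.3 and 97.7 in the adult nuclei labelled NP (log2 1.005, SE 0.18, adjusted p = 4.9e-06), which held under all 14 alternatives. Endo was at 129 and 118 against 74.6, 69.4 and 63.0 (log2 0.82, SE 0.16, adjusted p = 0.00315, and 0.129 without P0 replicate 1). Stroma 1 was at 198 and 191 against 116, 151 and 153 (log2 0.60, SE 0.16, adjusted p = 0.00576), and moved to 0.151, 0.072, 0.0525 and 0.0603 without P0 replicate 1, P0 replicate 2, adult replicate 1 and adult replicate 3. LOH (log2 0.50, SE 0.13, adjusted p = 0.00692) moved to 0.0794 without P0 replicate 1 and 0.129 without P0 replicate 2. No cluster of 13 was called higher in the adult by edgeR or DESeq2, or at an unadjusted p under 0.05. Stroma 1 led at P0 (194 ± 5.11, above Stroma 2 at 176 ± 11.4 in each sample), and Stroma 2 in the adult (221 ± 19.4), where it overlapped Podo (196 ± 41.9).

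Fgfr1 peak 2 (chr8:25514431-25515523) is an intronic peak 3.78 kb upstream of the RefSeq start. In LOH it was at 17.0 and 14.9 CPM at P0 and 1.28, 0.705 and 0.684 in the adult (log2 4.05). In CNT it was open in 22 and 12 P0 nuclei and in 0 (up to 3.61% allowed), 1 and 1 adult nuclei, for which the ratio in CPM was 30.7 (exact counting interval 7.86 to 263, nuclei pooled). Both were tested through P0. Peak 11, intronic, was higher at P0 in Stroma 1 (43.1 and 45.7 against 20.4, 26.9 and 16.8, log2 1.24, SE 0.27, adjusted p = 9.65e-05) and Endo (21.3 and 20.2 against 7.93, 4.21 and 8.66, log2 1.62, SE 0.34, adjusted p = 9.13e-04). Peak 10 ran the other way in Stroma 2 (23 and 19.99 against 36.4, 42.6 and 50.4, log2 −1.02, SE 0.18, adjusted p = 6.71e-05, and 0.0548 without P0 replicate 2). Both calls of peak 11 held under every alternative that tested them. Peak 1, over the outermost start site, was a proximal tubule peak at both stages. It was open in 29.7% ± 4.1 of PST and 18.2% ± 2.4 of PCT nuclei at P0 and in 27.3% ± 13 and 13.1% ± 4.4 in the adult, with DCT next at P0 (3.82% ± 2.9).

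Fgfr2, the receptor of the ureteric epithelium, differed between stages in both directions. Over its RefSeq extent (45 peaks) its gene activity in NP was 84.9 and 91.6 CPM at P0 and 199, 225 and 166 in the adult nuclei labelled NP (log2 −0.995, SE 0.15, adjusted p = 8.25e-08), which held under all 12 alternatives. Podo was also higher in the adult (112 and 124 against 187, 207 and 153, log2 −0.69, SE 0.15, adjusted p = 0.00385), a call lost without P0 replicate 1 (0.148), P0 replicate 2 (0.108) or adult replicate 2 (0.0855), and with DESeq2 (0.0911), thinned nuclei (0.0569) or equal numbers (0.614). PCT was higher at P0 (53.7 and 47.2 against 24.1, 27.2 and 26.2, log2 0.83, SE 0.14, adjusted p = 0.00293, 0.0688 without P0 replicate 1 and 0.121 with thinned nuclei), as was Stroma 2 (134 and 135 against 118, 97.4 and 73.9, log2 0.55, SE 0.16, adjusted p = 0.0138), which moved to 0.132 without P0 replicate 1 and 0.0982 without P0 replicate 2. Over the whole readthrough record these calls were replaced by 1 in LOH (1860 and 1829 against 2094, 2382 and 2261, log2 −0.35, adjusted p = 0.0465), lost without P0 replicate 1 (0.0998) or P0 replicate 2 (0.164), or with equal numbers of nuclei (0.204). PC led at P0 (155 ± 20.9) and PCT, Endo and Immune were lowest (50.5, 44.2 and 20.6). In the adult NP (197 ± 30.0), Podo (182 ± 27.3) and PC (166 ± 30.0) led and overlapped.

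Peak 20 of Fgfr2 (chr7:130230167-130230600), intronic and 36.4 kb from the RefSeq start, was at 3.78 and 3.17 CPM in P0 LOH and 11.51, 26.8 and 15.3 in adult LOH (log2 −2.58, SE 0.35, adjusted p = 1.43e-06), which held under every alternative that tested it. Peak 44 (chr7:130164893-130165507), intronic near the far end of the gene, was open in 8.40% and 8.82% of P0 Stroma 2 nuclei. In adult Stroma 2 it was open in 1 nucleus of replicate 1 and in none of replicates 2 and 3, which allows up to 0.561% and 0.872%. In CPM the P0 level was 48.0 times the adult level (exact counting interval 8.53 to 1906, nuclei pooled), in a pair that had to be high at P0 to be tested. Peak 18 was a stromal peak at both stages, open in 22.3% ± 1.3 of Stroma 2 and 20.7% ± 1.2 of Stroma 1 nuclei at P0 and in 12.9% ± 2.2 and 11.5% ± 4.7 in the adult, with CNT next at P0 (3.59%). Peak 30 was open mostly in PST, in 31.1% ± 1.4 at P0 and 19.0% ± 2.6 in the adult. Among the readthrough peaks, number 84, which also lies in Fam53b, was at 1.25 and 2.22 in P0 NP and 51.9, 33.5 and 38.0 in the adult nuclei labelled NP (log2 −4.11), and was tested through the adult.

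Nearly every tested peak of the 10 genes was more open in some cluster than in the mean of the other 12: 118 of 119 at P0 and 46 of 46 in the adult within the RefSeq extents, where 97.1% of all tested peaks were so at P0 and 94.6% in the adult. Clusters were made from the same nuclei, so these values only rank clusters. Over the start-site peaks of 9 genes, the mean share of open nuclei across clusters was 19.8% ± 0.586 at P0 (n = 2) and 12.4% ± 4.06 in the adult (n = 3) as deposited. These are the peaks of the rule, and that of Fgf20 is a readthrough peak which also lies in Micu3. Using the RefSeq extents of Fgfr2 and Fgf20, the means were 15.4% ± 0.189 and 9.61% ± 3.09. With each nucleus thinned to 1000 open peaks the mean over the peaks of the rule was 2.92% ± 0.129 and 2.66% ± 0.174, and the stages then overlapped. The heatmaps of start-site shares use the peaks within the RefSeq extents and show Fgf20 peak 1 highest in NP at P0. Fgf10 peak 2 was open in 24.0% ± 8.7 of PST, 21.1% ± 0.81 of NP and 16.2% ± 0.026 of LOH nuclei at P0, where the samples of PST and NP overlapped, and in 4.82% ± 0.68, 0.741% ± 1.3 and 0.857% ± 0.59 in the adult.

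**Figure D4:**
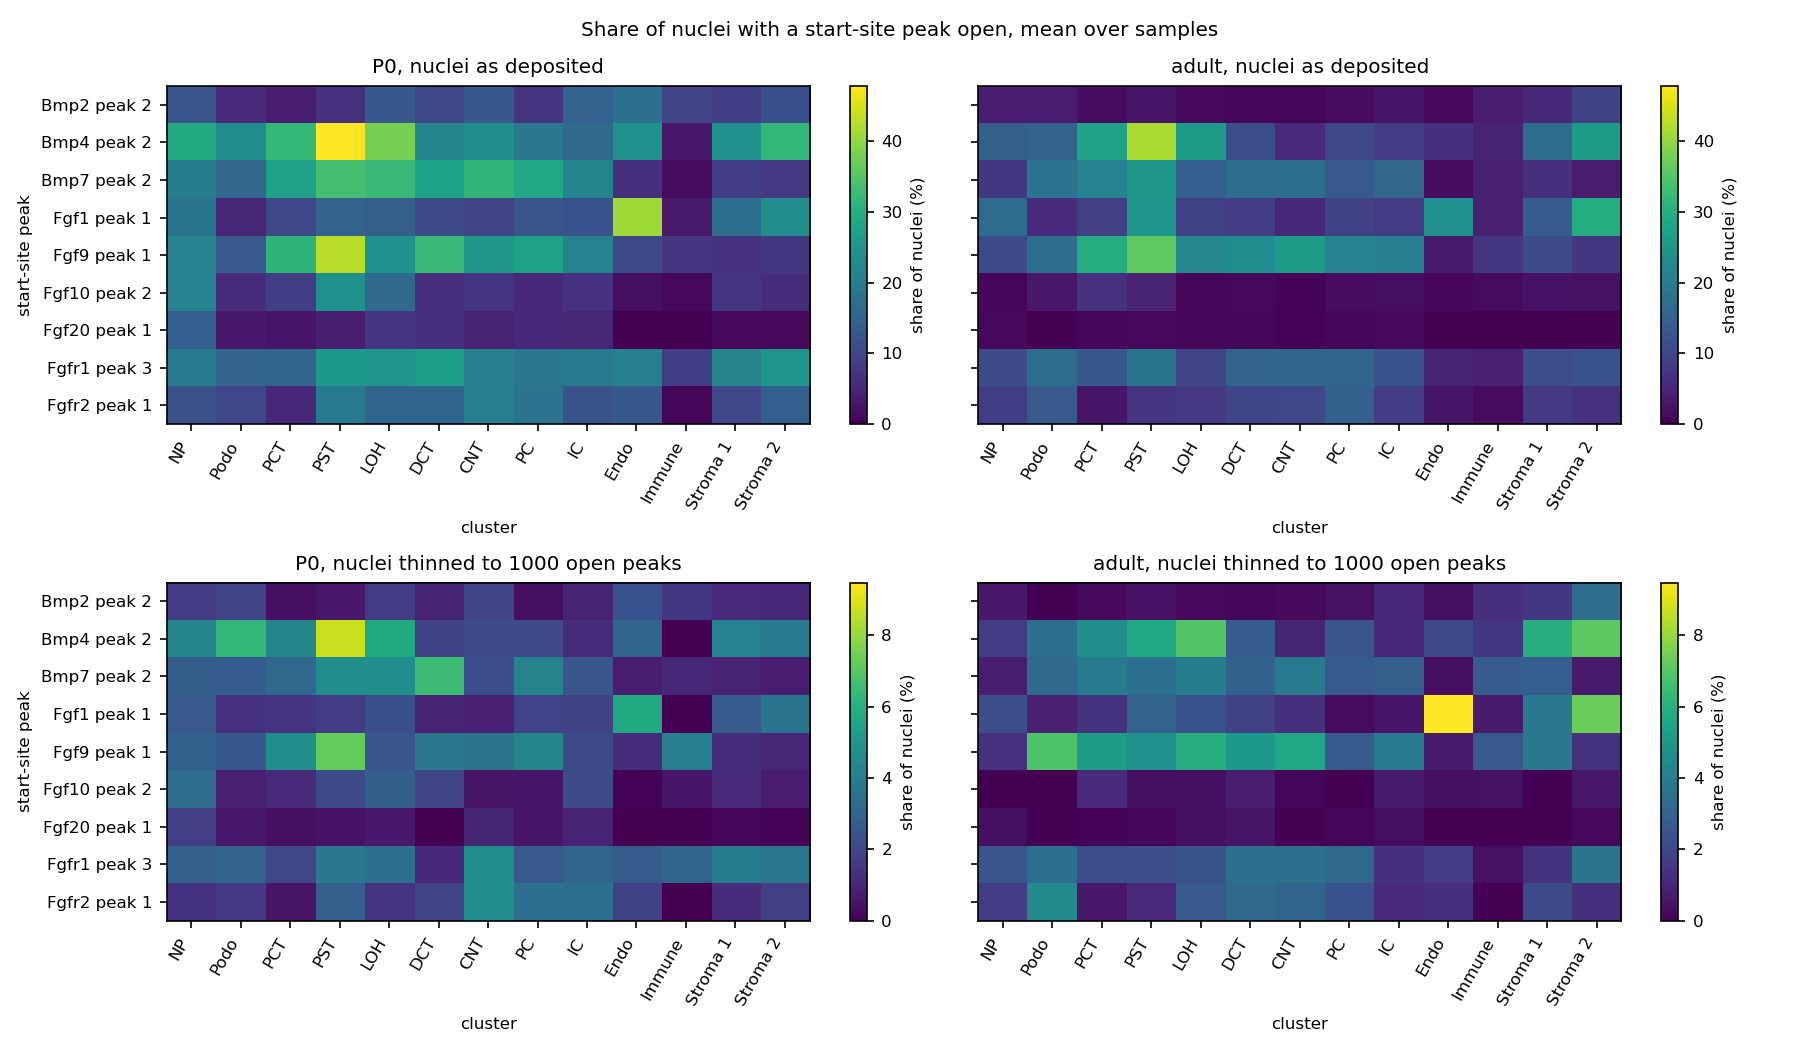
Share of nuclei with a start-site peak open (colour, percent, mean over samples) for the genes (rows) and 13 clusters (columns), at P0 and in the adult, as deposited and with nuclei thinned to 1000 open peaks. Fgf20 peak 1 reaches 14.2% in P0 NP and 0.999% in adult nuclei labelled NP, and P0 and adult share a colour scale within each row of panels.

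Around the 10 genes, 65 other genes of the pathways were tested over all genes in the same fit. Of their 702 gene and cluster pairs, 130 were called for P0 (18.5%) and 73 for the adult (10.4%), where all genes had 14.2% and 11.1%. Of these 203 calls, 62 held with each sample left out in turn and 23 were tested through one stage, some of them being in both counts. Bmp ligands outside the 10 gave 25 P0 and 4 adult calls of 61 pairs (41.0% and 6.56%), and Fgf ligands 23 and 1 of 43 (53.5% and 2.33%). Of these P0 calls, 7 of the 25 and 8 of the 23 were tested through P0, and 9 of each held with each sample left out. The calls that held include pairs tested through P0, which were Gdf5 in LOH and Gdf6 in NP for Bmp ligands. For Fgf ligands they were Fgf2 in NP and Fgf23 in PC and Stroma 2. Gdf6, a Bmp family ligand, was called for P0 in 8 of 11 clusters, 4 of them tested through P0 (log2 2.33 in NP), and Fgf23, known as a hormone of phosphate balance, in 7 of 7, 5 of them tested through P0 (3.91 in PC). With each sample left out, 4 of these Gdf6 calls held, in Endo, LOH, PC and NP, the last of which was tested through P0. The 3 of Fgf23 that held were LOH and, both tested through P0, PC and Stroma 2. Fgf2 was called for P0 in 7 of 12 (Stroma 1, 1.14, SE 0.20, adjusted p = 1.74e-04), where 3 held and 2 were tested through P0, NP being in both counts. Bmp5 was higher in the adult in 2 of 8 (LOH, −1.43, SE 0.16, 7.14e-05) and at P0 in 1, where LOH alone held.

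Bmp receptors gave 9 P0 and 6 adult calls of 89 pairs (10.1% and 6.74%), both under the 14.2% and 11.1% of all genes. The type I receptor Bmpr1b was higher at P0 in 6 of 12 clusters, 4 of which held with each sample left out (NP, log2 1.85, SE 0.21, adjusted p = 6.1e-11). Bmpr1a went the other way and was called for the adult in 3 clusters (PC, log2 −0.58, PCT, −0.585, and Stroma 2, −0.528). Smads gave 7 and 10 of 75 (9.33% and 13.3%). The inhibitory Smad6 was higher in the adult in 4 of 13 (LOH, −0.57, SE 0.11, 0.00191) and at P0 in PST (0.56, 0.0337). Of these Smad6 calls the LOH call alone held with each sample left out. Smad9 was called for P0 in 6 clusters, 1 of them tested through P0, and 0 of these calls held with each sample left out. Secreted and membrane Bmp antagonists and modulators gave 25 and 9 of 120 (20.8% and 7.5%). Grem1, which frees ureteric outgrowth from Bmp4, was called for P0 in 5 of 6 (LOH, 2.15, SE 0.36, 6.41e-04), of which LOH alone held with each sample left out and 3 were tested through P0. Bmper was higher at P0 in 4 of 12 (NP, 1.48, SE 0.23, 1.64e-07) with an adult call in PST (−0.93, 0.0147), and Twsg1 was higher in the adult nuclei labelled NP (−1.35, SE 0.17, 1.13e-09). Bmp targets gave 8 and 12 of 61 (13.1% and 19.7%). Id1 was called for the adult in 3 of 12 (PCT, log2 −1.995, SE 0.22, adjusted p = 4.74e-04) and for P0 in 2, of which the PCT call alone held. Msx1 was called for P0 in 3, of which LOH alone held (1.67, SE 0.29, 7.75e-04).

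Other Fgf receptors and co-receptors gave 10 P0 and 9 adult calls of 49 pairs (20.4% and 18.4%). Fgfrl1, a receptor without a kinase, was higher at P0 in 4 of 12 clusters (NP, log2 1.24, SE 0.22, adjusted p = 3.19e-06), and Kl, the klotho co-receptor of Fgf23, was higher in the adult in 6 of 11 (CNT, −1.69, SE 0.20, 3.3e-05), and 2 of the 4 and 2 of the 6 held with each sample left out. Signal transducers gave 0 P0 and 11 adult calls (14.1%) of 78 with edgeR. Higher at P0 were 2 pairs at an unadjusted p under 0.05 and 0 with DESeq2. Ptpn11, the Shp2 phosphatase, was higher in the adult nuclei labelled NP (−1.26, SE 0.18, 1.66e-08). Feedback inhibitors and targets gave 23 and 11 of 126 (18.25% and 8.73%). Dusp6 was called for the adult alone, in LOH (log2 −0.431) and Stroma 2 (−0.473). Etv5 was called for the adult in CNT and PCT and for P0 in PC, and Spred2 for the adult in PCT and Podo and for P0 in NP. The Ets factor Etv4 was called for P0 in 7 of 12 clusters, 1 of which, NP (log2 1.85), was tested through P0. With each sample left out 5 held, which were LOH, PC, Stroma 1, Stroma 2 and the same NP call. Etv1 was higher at P0 in 5 of 13 (3 held; NP, 1.94, SE 0.27, adjusted p = 1.34e-08) and in the adult in PCT (−0.54, adjusted p = 0.0187). The inhibitor Spry4 was higher at P0 in 4 of 12 (3 held; LOH, 1.97, SE 0.19, 3.32e-05) and in the adult in PCT (−0.52, adjusted p = 0.0385) and Endo (−0.50, 0.0361). The differences given with an SE for these 65 genes held with each sample left out, in the cluster given.

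**Figure D5:**
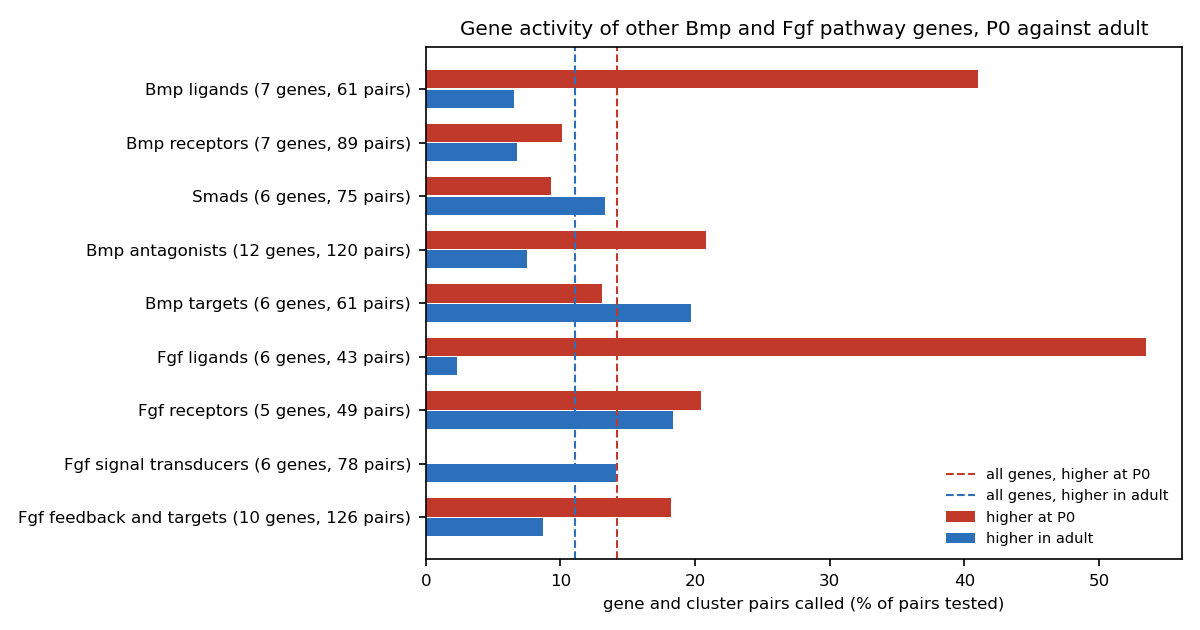
Share of gene and cluster pairs called higher at P0 and higher in the adult (horizontal axis, percent of pairs tested) for 9 groups of other Bmp and Fgf pathway genes (vertical axis, with the number of genes and pairs), with dashed lines at the shares over all genes. The P0 calls of Fgf ligands (23 of 43) and Bmp ligands (25 of 61) include 8 and 7 tested through P0, and Fgf signal transducers have 0 P0 calls of 78.

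Genes with the most similar accessibility were found by Pearson's r of gene activity over 26 pools (13 clusters at each stage), among 5373 candidate genes. These pools share samples and depth, so r is a description. Bmp2 was closest to Hk2 (r = 0.91), Marcks (0.88) and Cd44 (0.85), Bmp7 to Fmn1 (0.92) and Fgf9 to Rassf7 (0.93). Fgf10 was closest to Hunk (0.89), Fgf20 (RefSeq extent) to Mdga1 (0.84) and Lgr5 (0.81), and Fgfr2 (RefSeq extent) to Sox5 (0.85). The highest r was 0.77 for Bmp4 (Cspg4), 0.82 for Fgf1 (Nfib), 0.84 for Fgf8 (C530008M17Rik) and 0.81 for Fgfr1 (Rai14). Between the 10 genes, r was highest for Bmp7 with Fgf9 (0.89), and next for Fgf8 with Fgf20 over its RefSeq extent (0.70).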

How the data were processed

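Single-nucleus ATAC-seq of mouse kidney was taken from 2 P0 and 3 adult samples. Per the submitters' processing notes and the study's methods, the authors aligned reads to mm10 with Cell Ranger ATAC 1.1.0, filtered barcodes on fragments, mitochondrial share and promoter share, clustered nuclei on binned reads with SnapATAC after Harmony had been used to remove differences between samples, and called peaks with MACS2 in each cell type apart. They deposited a binarized table of peaks by nuclei on mm10, read here as counts of open calls (0 or 1), with a peak list and a table of samples and clusters. The clusters deposited as PT and PT2 are written PCT and PST.

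Open calls were summed per sample and cluster (sums of at least 20 nuclei) and P0 was compared with adult in each cluster by edgeR's quasi-likelihood test (edgeR 4.0.16 in R 4.3.3, TMM, minimum count 10) with Benjamini-Hochberg adjustment at 0.05 over all peaks or genes of the cluster. The test fits negative binomial counts to sums of calls that are 0 or 1 in each nucleus. All p-values given are these adjusted p-values unless said otherwise, and SE is the log2 difference over the square root of F. Gene activity sums open calls over peaks in the gene body and 2 kb upstream (GENCODE M21, mm10). The scripts were tested on simulated counts. Alternatives were DESeq2 1.42.0, no filter, 50 nuclei, nuclei thinned to 1000 open peaks (without shallower ones, 77 to 257 per sample), equal numbers of nuclei, a replicate block, other gene windows and each sample left out. The RefSeq extents and the counts without NP were chosen after seeing the data. Intervals and floors (3 nuclei) cover counting error only.

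The 10 genes, the 65 pathway genes and the motif words were chosen with earlier results of these data known. Peaks named are, per gene, the start-site peak, up to 2 with the smallest adjusted p and up to 2 with the highest share. Within each pathway group, genes were named among the up to 3 called in most clusters per direction. Of the series, 8 other samples (RNA and bulk ATAC) were not analysed here. No doublet caller was run here, and none is named in the study's methods.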

Additional observations from a re-analysis of the deposited data

Results flagged for a closer look

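Gene activity of 3 genes moved in opposite directions between P0 and adult in a pair of clusters, with every sample of one stage on the same side in each. Bmp2 was higher at P0 in LOH (log2 2.71) and higher in the adult in Stroma 2 (log2 −0.505). Bmp4 was higher at P0 in CNT (log2 1.92) and higher in the adult in Stroma 2 (log2 −0.521). Fgfr2 over its RefSeq extent was higher at P0 in PCT (log2 0.826) and higher in the adult nuclei labelled NP (log2 −0.995). The difference between the clusters was not tested for any of these 3 genes, and both Stroma 2 calls were lost without P0 replicate 1 or without P0 replicate 2. The Stroma 2 calls of Bmp2 and Bmp4 were kept under 6 and 11 of 14 alternatives. In Stroma 2 the share of nuclei with the main peak open ran against the CPM, at 31.6% at P0 and 26.1% in the adult for Bmp4 peak 2 and 11.7% and 9.24% for Bmp2 peak 2. These shares are not scaled for depth, and Stroma 2 nuclei had medians of 6930 and 7624 open peaks at P0 and 3465.5, 3384 and 3311 in the adult.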

How the results depend on the processing

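Over the 38 gene activity calls of the 10 genes, 107 of 499 comparisons with an alternative kept the direction without the call, 0 reversed, and the others kept both. Over 85 calls at named peaks, 685 of 917 kept both, and 1 reversed: Bmp4 peak 2 in LOH went from a log2 difference of −0.55 to 0.10 with thinned nuclei (adjusted p = 0.833). Named peaks were picked in part by the smallest adjusted p of this same test, and 33 of the 85 calls were tested through one stage. Alternatives that could not test a call are not counted, so the share kept describes these calls only. Peak calls higher at P0 (204 of the 762 peaks' pairs, 85 within the RefSeq extents) numbered 115 and 47 with DESeq2, 475 and 155 with no filter, 17 and 6 with thinned nuclei and 82 and 41 with equal numbers of nuclei. They ranged from 75 to 306 and from 27 to 114 with 1 sample left out, being lowest without P0 replicate 1 and next lowest without P0 replicate 2 (98 and 40). Peak calls higher in the adult (337 and 71) numbered 240 and 55 with DESeq2, 36 and 6 with thinned nuclei and 153 and 31 with equal numbers, and ranged from 137 to 427 and from 26 to 88, the lowest values being those without either P0 sample. Gene activity calls higher at P0 (22) numbered 7 when thinned and ranged from 10 to 26 with 1 sample left out. Those higher in the adult (10) numbered 4 when thinned, 6 with equal numbers of nuclei and 5 with the replicate block, and ranged from 3 to 13. Thinning tests fewer pairs by construction (85 against 402 within the RefSeq extents), and leaving out a P0 sample leaves 1. That sample is then assumed to vary like the adult ones. The cause of the other changes was not tested.

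Peaks higher in a cluster than in the other 12 numbered 453 of the 762 at P0 (700 with no filter, 63 thinned) and 118 within the RefSeq extents (27 thinned). In the adult they numbered 185 (610 with no filter, 35 thinned) and 46 (154 and 12). With 1 adult sample left out, the adult counts ranged from 159 to 284 and from 42 to 75, the highest being without adult replicate 1. Without a P0 sample no such test was made at P0. The mean start-site share at P0 was 19.8%, 2.92% when thinned and 15.4% with the RefSeq extents. The adult one was 12.4%, 2.66% when thinned and 9.61% with the RefSeq extents. The replicate block by title number kept 33 of 38 gene activity calls (losing Bmp2 in Stroma 2, Fgf1 in PCT and Stroma 1 and Fgf9 in CNT and Stroma 1) and 75 of 85 peak calls. The deviations of same-numbered samples correlated at 0.0553 to 0.197 between P0 and P56, and the samples share only a number. Without adult replicate 1, the P21 sample, 31 of 38 gene activity calls were kept. Depth limits peaks open in few nuclei, and 55 of 177 peaks within the RefSeq extents were tested in no cluster.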
